A study of Mus musculus with 16 samples.

Results

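The 10 mRNAs Trem2, Tyrobp, Apoe, Cst7, Lpl, Axl, Spp1, Clec7a, Gpnmb and Lgals3, which include the receptor, the adaptor and many of the hallmark transcripts of damage-associated microglia, were followed in sorted brain cells of mice with experimental autoimmune encephalomyelitis (EAE) and of control mice. They were taken by gene symbol from the 21878 mRNAs of the deposited tables, and all 10 had enough counts to be tested. EAE is a mouse model of multiple sclerosis in which immunization against a myelin protein leads to inflammation and loss of myelin in the central nervous system.

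All animals were female wild-type C57BL/6 mice, 8 weeks old, with no transgene. In the 8 mice of the EAE group, disease was induced with a peptide of myelin oligodendrocyte glycoprotein (MOG, residues 35–55) in complete Freund's adjuvant, together with 200 ng of pertussis toxin on days 0, 2 and 7, and brains were taken on day 14 at a clinical score of 3 to 4. The labels' treatment field ends the peptide at residue 55 for EAE 1 and 1 residue later for each further mouse, up to 62 for EAE 8. The 8 control mice received phosphate-buffered saline (PBS). Cells positive for CD11b with intermediate CD45 were sorted as microglia after a Percoll gradient, and 1 stranded total RNA library was sequenced per mouse. Total counts per library were 24587443 to 30244215 in the EAE group and 26031889 to 34184576 in the PBS group. Levels are given in FPKM, which scales fragment counts by transcript length and library total and so can be compared between genes. Differences are log2 fold changes (log2FC, EAE minus PBS) fitted to the raw counts with the quasi-likelihood test of edgeR, and adjusted p-values are Benjamini-Hochberg values over all tested mRNAs.

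Trem2 is a surface receptor of myeloid cells that binds lipids, lipoproteins and cell debris. It has no signalling tail of its own and passes its signal through the adaptor Tyrobp, also called DAP12, to the kinase Syk. Apolipoprotein E, the product of Apoe, carries lipids between brain cells, is a ligand of Trem2 and is made in bulk by astrocytes as well as by activated microglia. In mouse models of neurodegeneration and demyelination, microglia next to lesions lose homeostatic transcripts and gain Apoe, Cst7, Lpl, Axl, Spp1, Clec7a, Gpnmb and Lgals3, and the full change depends on Trem2.

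The sorted libraries held transcripts of other brain cells in both groups. Summed over 20 genes of homeostatic microglia, the level was 1270 to 1960 FPKM in the EAE libraries and 1490 to 1750 FPKM in the PBS libraries. Most of this sum came from Cst3 (means 899 and 989 FPKM) and Sparc (246 and 276 FPKM), which are also used by astrocytes. The next gene, C1qb, had means of 66 and 59 FPKM, so the sum is no measure of microglia alone. Summed over 12 neuron genes, led by Camk2a and Slc17a7, the level was 1590 to 1900 FPKM in the EAE libraries and 1840 to 2010 FPKM in the PBS libraries. For 12 astrocyte genes, led by Slc1a2 and Aldoc, the sums were 1290 to 1960 FPKM and 1500 to 1800 FPKM. For 10 oligodendrocyte genes, led by Mbp, they were 945 to 1330 FPKM and 1040 to 1280 FPKM. No gene of these 4 lists was at 0 in any library, so the values below are those of a mixed sample and not of microglia alone. In such bulk libraries, fewer cells of a type and less RNA per cell cannot be told apart. EAE 4 or EAE 5 held the highest or the lowest EAE value of each of the 10 mRNAs, but no value was past Dixon's critical value in any of the 20 groups (10 mRNAs in EAE and in PBS mice). EAE 6, EAE 7 and EAE 8 were more alike than other EAE mice, with a median absolute log2 difference of 0.0878 to 0.0953 per pair over 14759 mRNAs, against 0.125 to 0.259 for the other EAE pairs. The same was found for PBS 5, PBS 7 and PBS 8, with 0.0798 to 0.0922 per pair against 0.137 to 0.234 for the other PBS pairs. Pairs of these EAE with these PBS libraries differed by 0.128 to 0.179, inside the range of 0.117 to 0.26 for the other EAE against PBS pairs. The 6 libraries are called alike below for their likeness within each group, not across the groups. No batch is named in the labels, and values that depend on these 6 libraries are given within and outside them. Since the 6 were picked for their small differences within a group, p-values within them are too small by construction and are not given: 4147 of 17239 mRNAs passed the edgeR test there at an adjusted p under 0.05, against 13 of 17461 within the other 10 libraries.

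Of the 10 mRNAs, Lgals3 and Trem2 were higher and Apoe was lower in EAE mice at an adjusted p under 0.05, while the other 7 did not pass the test. Over all 17885 tested mRNAs, 2.42% passed in either direction, 0.66% in the higher and 1.76% in the lower direction. None of the 10 reached the threshold of a DEmRNA, which also asks for an absolute log2FC over 1 and was met by 0.117% of the tested mRNAs. At an unadjusted p under 0.05 in the same edgeR test, 3 were higher (Trem2, Clec7a and Lgals3) and 2 were lower (Apoe and Axl), where 17.4% of all tested mRNAs passed. Of all 17885 tested mRNAs, 1416 were higher and 1702 were lower at that level. By sign alone, 9416 were higher and 8465 were lower. The counts of the gene lists below are to be read beside these. The median log2FC of the 10 mRNAs was 0.22, and that of all tested mRNAs was 0.01.

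**Figure D1:**
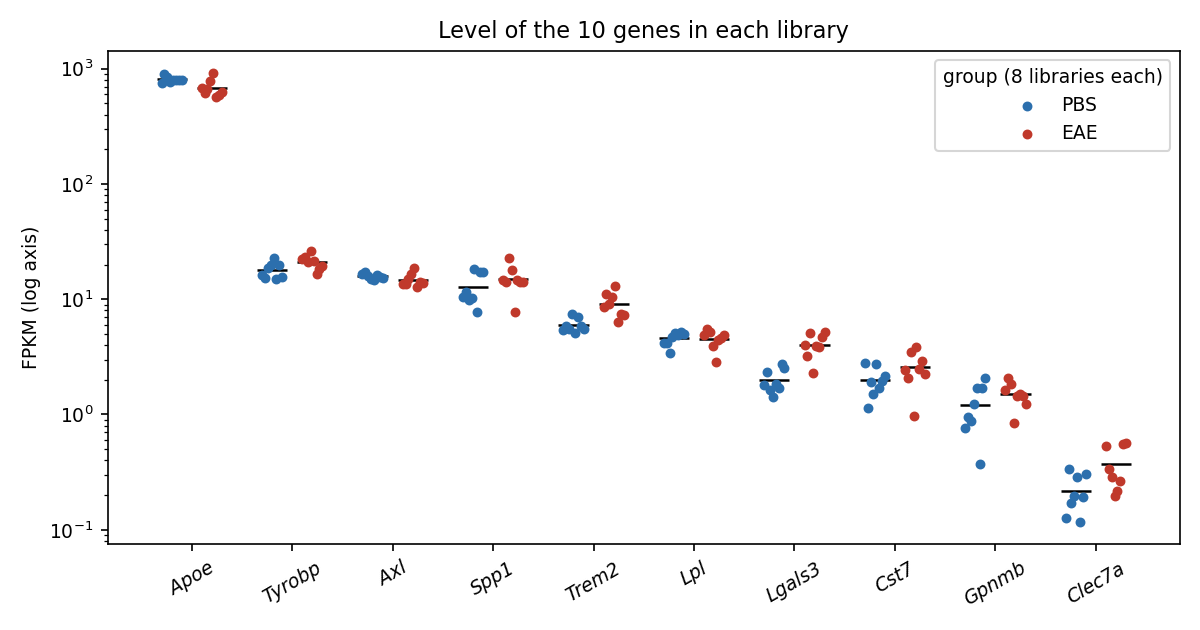
FPKM of each of the 10 mRNAs (log axis) in the 8 PBS libraries (blue) and the 8 EAE libraries (red), ordered by mean level, with 1 point per library and a black line at each group mean. Levels run from 571 to 915 FPKM for Apoe in EAE mice down to 0.117 to 0.339 FPKM for Clec7a in PBS-treated mice, and the groups of every mRNA overlap.

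The 10 mRNAs covered a wide range of levels. Apoe was the most abundant in all 16 libraries and Clec7a the least abundant in all 16. Between them, the order by mean FPKM was Tyrobp, Axl, Spp1, Trem2, Lpl, Lgals3, Cst7 and Gpnmb. Most neighbours in this order kept it in 13 to 16 libraries, but Axl exceeded Spp1 in only 7 of 16 libraries. Lgals3 exceeded Cst7 in 8 of 8 EAE libraries and in 3 of 8 PBS libraries, so that the order of these neighbours was not the same in both groups.

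The start sites of the 3 mRNAs that passed the test, and of Spp1, are shown by the 250 bases upstream of them, taken from RefSeq on GRCm38.p6 and written 5′ to 3′ on the strand of the gene. RefSeq promoters were matched for 8 of the 10 mRNAs, all but Tyrobp and Lpl. The 32851 RefSeq promoters of 300 bases (250 before and 50 after the start) were searched on both strands for 4 motifs. The E-box CACGTG was present in 7.15% of all these promoters. The AP-1 motif TGACTCA was present in 5.20% of them. For the PU.1 type motif AGGAAGTG, bound in myeloid cells, the share was 4.07%. The TATA box TATAAA had a share of 13.6%. Capitals mark such a match. None lies in the stretches of Trem2, of Lgals3 or of the Apoe start that the annotation also gives, and Spp1 is shown because it holds a match to the PU.1 type motif 112 bases and to the TATA box 211 bases before its start. The RefSeq start of Lgals3 lies inside the gene as GENCODE annotates it.
Trem2, chr17:48346151-48346400, plus strand: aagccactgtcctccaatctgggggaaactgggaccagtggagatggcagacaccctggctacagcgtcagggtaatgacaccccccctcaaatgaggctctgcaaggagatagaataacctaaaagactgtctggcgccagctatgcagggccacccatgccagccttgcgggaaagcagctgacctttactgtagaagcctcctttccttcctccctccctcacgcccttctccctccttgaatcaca
Lgals3, chr14:47373610-47373859, plus strand: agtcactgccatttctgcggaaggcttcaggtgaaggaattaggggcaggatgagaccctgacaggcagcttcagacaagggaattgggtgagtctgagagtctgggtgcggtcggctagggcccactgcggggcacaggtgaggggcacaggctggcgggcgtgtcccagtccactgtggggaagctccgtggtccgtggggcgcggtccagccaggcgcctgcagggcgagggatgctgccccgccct
Apoe, chr7:19699189-19699438, minus strand: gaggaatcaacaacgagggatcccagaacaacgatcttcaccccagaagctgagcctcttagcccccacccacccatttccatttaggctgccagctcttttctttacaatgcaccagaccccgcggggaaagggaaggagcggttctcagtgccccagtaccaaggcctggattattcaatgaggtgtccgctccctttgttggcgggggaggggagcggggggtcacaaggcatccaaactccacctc
Spp1, chr5:104434861-104435110, plus strand: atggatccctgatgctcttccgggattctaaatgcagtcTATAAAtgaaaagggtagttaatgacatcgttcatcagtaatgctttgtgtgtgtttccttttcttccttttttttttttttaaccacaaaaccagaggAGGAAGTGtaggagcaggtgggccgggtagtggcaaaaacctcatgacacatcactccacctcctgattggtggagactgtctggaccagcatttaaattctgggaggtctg
Elsewhere, Cst7 had a PU.1 type match 63 bases before its start, and Gpnmb had an AP-1 match 8 bases after its start. A second RefSeq start of Apoe had TATA box matches 100 and 96 bases before it, and Clec7a had one 42 bases after a start. The promoter of Axl held none of the 4 motifs in this window. These matches describe letters only.

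The receptor was measured in Trem2, which lies on chromosome 17 (chr17:48346401-48354147, plus strand, GRCm38). In EAE mice its level was 6.31 FPKM at the lowest (EAE 6), 8.79 at the median and 13.1 at the highest (EAE 5). In PBS-treated mice it was 5.07 FPKM at the lowest (PBS 5), 5.68 at the median and 7.50 at the highest (PBS 4). In all, 5 EAE libraries lay above every PBS library, and all 8 lay above the PBS median. The means were 9.13 ± 2.25 FPKM (SD, n = 8) and 5.97 ± 0.854 FPKM (SD, n = 8). Trem2 was thus 1.48-fold higher, a log2FC of 0.56 with an SE of 0.13 and a Benjamini-Hochberg adjusted p of 0.0282 in edgeR's test. An exact permutation test of the mean FPKM gave p = 0.00109 (two-sided, unadjusted, 1 of 10 such tests).

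Trem2 was set beside the homeostatic genes of microglia. Of the 20 homeostatic microglia genes, 1 was higher, none was lower and the median log2FC was 0.13. By sign, 16 were higher and 4 were lower, and at an unadjusted p under 0.05 in edgeR the counts were 3 and 2. The gene that passed was Itgam (log2FC 0.46), the integrin chain CD11b used in the sort. Those at an unadjusted p under 0.05 alone were Olfml3 (log2FC 0.49), Fcrls (0.45), Cst3 (−0.19) and Sparc (−0.22). Relative to Csf1r, a receptor that all microglia need, Trem2 had a ratio of FPKM of 0.270 ± 0.0220 (SD, n = 8) in EAE mice and 0.203 ± 0.0217 (SD, n = 8) in PBS-treated mice, and 7 EAE libraries lay above every PBS library. With the mean log2 CPM of the homeostatic list as a covariate, the log2FC of Trem2 was 0.43 (adjusted p = 0.0247 from the edgeR test). With the mean of the astrocyte list as a covariate it was 0.71 (adjusted p = 0.00997 from the edgeR test). With the mean of the neuron list as a covariate, an alternative chosen after seeing the data, it was 0.14 (adjusted p = 0.771 from the edgeR test), in a fit where calls over all mRNAs fell from 433 to 54. The neuron list was lower in EAE mice, at a mean log2 CPM of 8.22 to 8.50 against 8.49 to 8.65, with 2 of its 12 genes past the test (Gad1 and Syt1). Its ranges scarcely overlapped between the groups, and its part in the Trem2 result was not tested. Between mice of a group, Trem2 varied with the homeostatic microglia genes (r = 0.73, 16 libraries) and as closely with the oligodendrocyte genes (r = 0.80). None of the oligodendrocyte genes passed the edgeR test, where 1 was higher and 3 were lower at an unadjusted p under 0.05. Their part was not tested. With the astrocyte genes r was 0.64. Trem2 ran against the monocyte genes (r = −0.79) and against the 30 other genes of the damage-associated state described below (r = −0.65). Values were also negative for the partners of osteopontin and galectin-3 (−0.68), the neuron genes (−0.65) and the neutrophil genes (−0.64). Leaving out EAE 2, PBS 2, PBS 3, PBS 5 or PBS 7 raised the adjusted p of Trem2 to between 0.055 and 0.0661 in the edgeR test. Within the 6 alike libraries its log2FC was 0.32, and within the other 10 it was 0.67 (adjusted p = 0.11 with edgeR).

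Tyrobp, the adaptor (chr7:30413760-30417585, plus strand), was at 16.4 FPKM at the lowest, 21.2 at the median and 26.4 at the highest in EAE mice. In PBS-treated mice it was at 15.1, 17.5 and 22.8 FPKM, in the same order of lowest, median and highest, which is kept for the mRNAs below. Only 2 EAE libraries exceeded every PBS library, and the groups overlapped over most of their range. Its log2FC was 0.19 (SE 0.11, approximate 95% interval −0.04 to 0.41), with an adjusted p of 0.382 in the edgeR test. Within the 6 alike libraries the log2FC of Tyrobp was −0.13, and within the other 10 it was 0.36 (unadjusted p = 0.00735, adjusted p = 0.25 with edgeR). The ratio of Trem2 to Tyrobp was 0.431 ± 0.0793 (SD, n = 8) in EAE mice and 0.341 ± 0.0736 (SD, n = 8) in PBS-treated mice, with 1 EAE library above every PBS library.

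Of 30 tested genes listed as Trem2-Tyrobp signalling, 1 was higher and none was lower, with a median log2FC of 0.05. The list holds signalling proteins and enzymes such as Syk and Adam10, but also other receptors such as Trem1, Treml2 and Siglech. It is therefore broader than the pathway of Trem2 itself. At an unadjusted p under 0.05 in edgeR, 3 of the 30 were higher and none was lower. Over all 17885 tested mRNAs these counts were 1416 and 1702. The gene that passed was Vav1, a guanine nucleotide exchange factor of immune cells, with a log2FC of 0.42 (adjusted p = 0.0255 from the edgeR test). Sirpb1a, on the same list, had too few counts to be tested.

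The 5 mRNAs whose level followed Trem2 most closely over the 16 libraries, out of 14750 compared, were Col4a6, Ankrd44, Mki67, Spag6l and Rsph1. Their Pearson r of log2 CPM with Trem2 was 0.897, 0.889, 0.887, 0.88 and 0.88. Col4a6 encodes a chain of basement membrane collagen, Mki67 a marker of dividing cells, and Spag6l and Rsph1 parts of motile cilia. Once each group's mean was subtracted, r lay between 0.754 for Rsph1 and 0.888 for Ankrd44. These values describe 16 mixed samples, with no test.

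**Figure D2:**
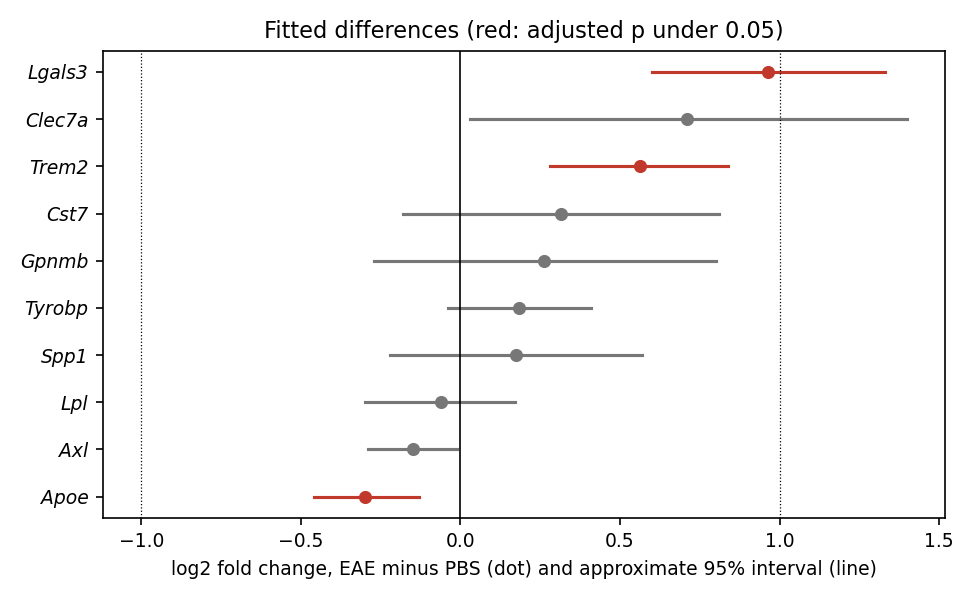
Fitted log2 fold change, EAE minus PBS, of the 10 mRNAs (dots) with its approximate 95% interval (lines), over 8 libraries per group, with dotted lines at an absolute log2FC of 1. Lgals3 and Trem2 on the right and Apoe on the left are red for an adjusted p under 0.05, and the intervals of Clec7a, Gpnmb and Cst7 are the widest.

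Apoe, the lipid carrier and Trem2 ligand (chr7:19696109-19699188, minus strand), moved in the opposite direction. In EAE mice its level was 571 FPKM at the lowest (EAE 6), 648 at the median and 915 at the highest (EAE 5). In PBS-treated mice it was 746 FPKM at the lowest (PBS 1), 801 at the median and 908 at the highest (PBS 2). In all, 6 EAE libraries lay below every PBS library, but EAE 5 lay above every PBS library. The spread in EAE mice, 681 ± 114 FPKM (SD, n = 8), exceeded that in PBS-treated mice, 808 ± 50.0 FPKM (SD, n = 8). Apoe had a log2FC of −0.30 with an SE of 0.08 and an adjusted p of 0.0437 in the edgeR test, and the exact permutation test of the mean FPKM gave p = 0.0145 (two-sided, unadjusted). In 12 of the 16 edgeR fits with 1 library left out, all but those without EAE 4, EAE 5, PBS 1 or PBS 4, its adjusted p was between 0.0521 and 0.104. Scaling by total counts gave a log2FC of −0.25 (adjusted p = 0.0883 with edgeR). Within the 6 alike libraries the log2FC was −0.45, and within the other 10 it was −0.22 (adjusted p = 0.438 with edgeR). Without both EAE 4 and EAE 5, an alternative chosen after seeing the data, it was −0.42. Both libraries held higher Apoe values than every other EAE library, so leaving them out had to lower the EAE mean. Calls over all mRNAs rose from 433 to 2342 in that fit.

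The level of Apoe followed the astrocyte genes. Over the 16 libraries, with each group's mean subtracted, Pearson's r between Apoe and the mean log2 CPM of the 12 astrocyte genes was 0.96. Of these 12 genes, 11 were lower in EAE mice and 9 were so at an unadjusted p under 0.05, with a median log2FC of −0.23. Only Fgfr3, a growth factor receptor, passed as lower after adjustment (log2FC −0.25, adjusted p = 0.0467 from the edgeR test), and Gfap, the filament protein of reactive astrocytes, passed as higher (log2FC 0.50, adjusted p = 0.0312 from the edgeR test). The ratio of Apoe to Aldoc, an enzyme of astrocytes, was 2.11 ± 0.106 (SD, n = 8) in EAE mice and 2.20 ± 0.182 (SD, n = 8) in PBS-treated mice, with overlapping ranges. Relative to Slc1a3, a glutamate transporter, the ratio of Apoe was 4.39 ± 0.211 against 4.63 ± 0.247, and relative to the water channel Aqp4 it was 30.4 ± 1.57 against 34.2 ± 2.60, with 1 EAE library below every PBS library in each case. Exact permutation tests of these ratios gave p = 0.261 for Aldoc, 0.0471 for Slc1a3 and 0.00404 for Aqp4 (two-sided, unadjusted). With the mean of the astrocyte list as a covariate, the log2FC of Apoe was −0.14 (adjusted p = 0.0571 from the edgeR test). The part of the astrocyte transcripts in the Apoe result was not tested further.

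The receptor and its ligand together separated the groups. The ratio of Apoe to Trem2 was 56.0 to 90.5 in the EAE libraries, 76.4 ± 10.5 (SD, n = 8), and 102 to 159 in the PBS libraries, 138 ± 20.3 (SD, n = 8), with no overlap. Since both mRNAs had passed the test in opposite directions, the ratio is a description of them and no further evidence.

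**Figure D3:**
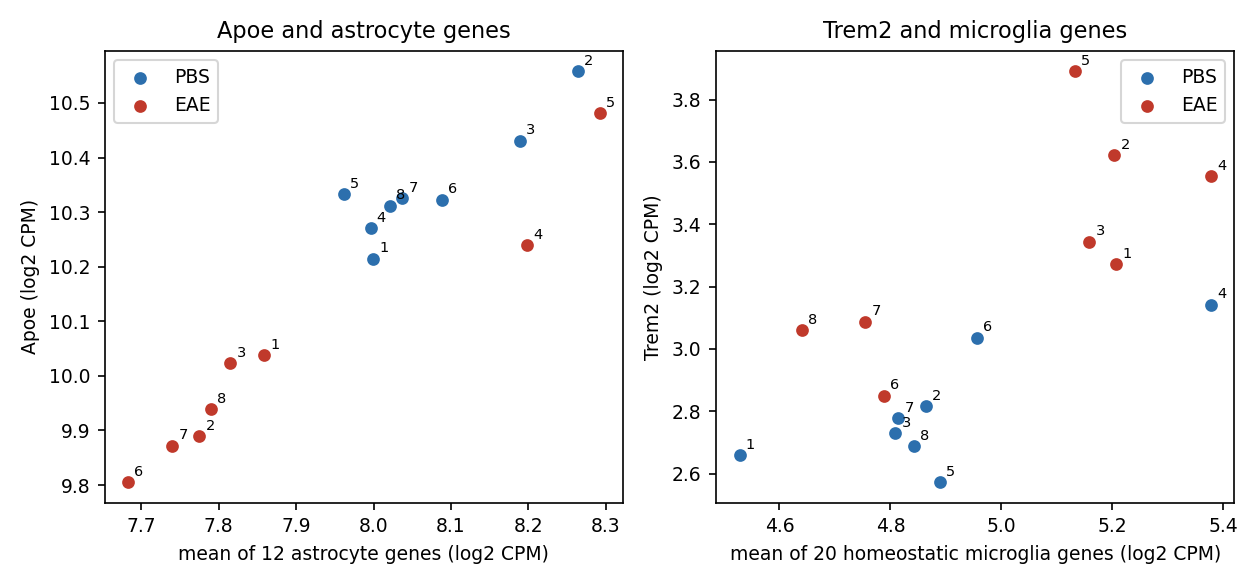
Left, log2 CPM of Apoe against the mean log2 CPM of 12 astrocyte genes, and right, log2 CPM of Trem2 against the mean of 20 homeostatic microglia genes, with 1 point per library, labelled with its replicate number (EAE red, PBS blue). Apoe lies along a line with the astrocyte genes in both groups (r = 0.96 within groups), and the EAE points of Trem2 lie mostly above the PBS points at like microglia levels (r = 0.73 within groups).

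Lpl, the lipoprotein lipase that releases fatty acids (chr8:68880491-68907448, plus strand), was at 2.85 FPKM at the lowest (EAE 5), 4.74 at the median and 5.51 at the highest in EAE mice. In PBS-treated mice it was at 3.45, 4.79 and 5.16 FPKM. The medians were close together and the groups overlapped. Its log2FC was −0.06 (SE 0.11, approximate 95% interval −0.30 to 0.17), with an adjusted p of 0.821 in the edgeR test. In contrast to Apoe, Lpl ran against the astrocyte genes between mice of a group (r = −0.78, 16 libraries).

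Of 24 tested genes of Apoe and lipid handling, none was higher and 2 were lower, with a median log2FC of −0.05, and at an unadjusted p under 0.05 the counts were 1 and 7. The genes that passed were Abcg1, a transporter that exports cholesterol (log2FC −0.25, adjusted p = 0.0305 from the edgeR test), and Npc1, which moves cholesterol out of the lysosome (log2FC −0.17, adjusted p = 0.0282 from the edgeR test). Apoc2 and Apoc4 had too few counts to be tested.

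Axl, a receptor tyrosine kinase for the uptake of dying cells (chr7:25757273-25788705, minus strand), was at 12.8 FPKM at the lowest, 13.98 at the median and 18.5 at the highest (EAE 5) in EAE mice. In PBS-treated mice it was at 14.6, 15.7 and 17.3 FPKM. In all, 5 EAE libraries lay below every PBS library and 1, EAE 5, lay above all of them. Its log2FC was −0.15 (SE 0.07, unadjusted p = 0.0367, adjusted p = 0.249 in the edgeR test). Axl varied with Apoe (r = 0.88 within groups) and with the astrocyte genes (r = 0.91), and with the astrocyte list as a covariate its log2FC was −0.03. Within the 6 alike libraries it was −0.19, and within the other 10 it was −0.13 (adjusted p = 0.684 with edgeR). Without EAE 5 its log2FC was −0.20 (adjusted p = 0.0400 from the edgeR test), in a fit where calls over all mRNAs rose from 433 to 901. Without both EAE 4 and EAE 5, chosen after seeing the data, it was −0.24. Both libraries held higher Axl values than every other EAE library, so leaving either out had to lower the EAE mean.

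Axl belongs with Mertk and Tyro3 to the TAM receptors, which bind the ligands Gas6 and Pros1. None of these 4 passed the edgeR test at an adjusted p under 0.05, and 2 of them were lower at an unadjusted p under 0.05. Their median log2FC was −0.11. The smallest p-values in the edgeR test were those of Gas6, Mertk and Tyro3, among which Gas6 had an unadjusted p of 0.00868 in edgeR.

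Clec7a, the lectin receptor Dectin-1 (chr6:129461591-129472779, minus strand), was the rarest of the 10, with 11 to 33 counts in the EAE libraries and 7 to 24 counts in the PBS libraries. Its level was 0.198 FPKM at the lowest (EAE 4), 0.312 at the median and 0.571 at the highest (EAE 8) in EAE mice. Control mice had 0.117, 0.193 and 0.339 FPKM. In all, 4 EAE libraries lay above every PBS library and all 8 lay above the PBS median. Its log2FC was 0.71 (SE 0.32, approximate 95% interval 0.03 to 1.40, unadjusted p = 0.0369, adjusted p = 0.250 in the edgeR test), the second largest of the 10 and measured on few counts.

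Gpnmb, a transmembrane glycoprotein of lysosomes (chr6:49036546-49070929, plus strand), was at 0.841 FPKM at the lowest, 1.47 at the median and 2.09 at the highest in EAE mice. The PBS libraries gave 0.369, 1.09 and 2.06 FPKM. Its log2FC was 0.26 (SE 0.25, approximate 95% interval −0.27 to 0.80), with an adjusted p of 0.635 in the edgeR test. The PBS libraries fell into separate levels, since PBS 5, PBS 7 and PBS 8 were at 1.69 to 2.06 FPKM and the other 5 were at 0.369 to 1.23 FPKM. These are the 3 PBS libraries that were most alike over all mRNAs.

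Spp1, the secreted phosphoprotein osteopontin (chr5:104435118-104441050, plus strand), overlaps the annotated gene Gm42793 on the same strand, so that its counts may include reads of both. Its level was 7.78 FPKM at the lowest (EAE 5), 14.5 at the median and 22.7 at the highest (EAE 3) in EAE mice. Among PBS-treated mice the values were 7.71, 10.95 and 18.2 FPKM. The groups overlapped almost fully, with 1 EAE library above every PBS library. Its log2FC was 0.17 (SE 0.18, approximate 95% interval −0.22 to 0.57), with an adjusted p of 0.673 in the edgeR test. As for Gpnmb, PBS 5, PBS 7 and PBS 8 stood at 17.3 to 18.2 FPKM and the other PBS libraries at 7.71 to 11.6 FPKM.

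The log2FC of both mRNAs had opposite signs within and outside the alike libraries. Within EAE 6, EAE 7, EAE 8, PBS 5, PBS 7 and PBS 8, Spp1 had a log2FC of −0.33 and Gpnmb of −0.42. Within the other 10 libraries, Spp1 had a log2FC of 0.56 (adjusted p = 0.313) and Gpnmb of 0.83 (adjusted p = 0.269) in the edgeR test. The difference between these values was not tested. The 5 mRNAs most like Gpnmb over the 16 libraries were Zfp704, Hpgd, Maml3, Spry4 and Tgfb1, with Pearson's r of log2 CPM between 0.824 and 0.862.

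**Figure D4:**
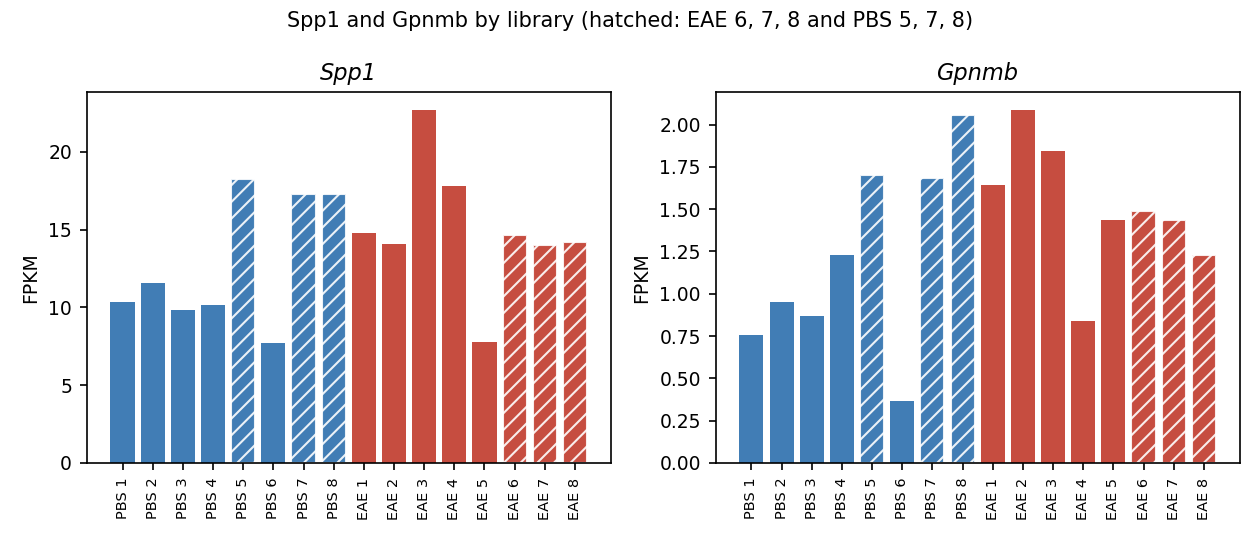
FPKM of Spp1 (left) and Gpnmb (right) in each library, PBS in blue and EAE in red, with hatched bars for the 6 libraries that were most alike within their group. The hatched PBS bars stand at 17.3 to 18.2 FPKM for Spp1 and 1.69 to 2.06 FPKM for Gpnmb, above the other PBS bars in both panels.

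Lgals3, which encodes the sugar-binding protein galectin-3 that is released at sites of damage (chr14:47367751-47386160, plus strand), showed the largest difference of the 10. In EAE mice its level was 2.30 FPKM at the lowest (EAE 4), 3.98 at the median and 5.22 at the highest (EAE 8). In PBS-treated mice it was 1.41 FPKM at the lowest (PBS 4), 1.82 at the median and 2.73 at the highest (PBS 7). In all, 7 EAE libraries lay above every PBS library, and EAE 4 lay within the PBS range. The means were 4.04 ± 0.969 FPKM (SD, n = 8) and 2.00 ± 0.471 FPKM (SD, n = 8). Lgals3 was 1.95-fold higher, a log2FC of 0.96 with an SE of 0.17 and an adjusted p of 0.00704 in the edgeR test, and the exact permutation test of the mean FPKM gave p = 0.000622 (two-sided, unadjusted). Whichever single library was left out, its adjusted p stayed under 0.05 in the edgeR test, from 0.000727 to 0.0184. Within the 6 alike libraries its log2FC was 0.93, and within the other 10 it was 0.99 (adjusted p = 0.112 with edgeR).

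Markers of blood leukocytes moved in the same direction as Lgals3. All 10 neutrophil genes were higher in EAE mice, 4 of them past the edgeR test, and their summed level, led by Lcn2 and S100a8, was 49.6 to 101 FPKM in EAE libraries and 19.3 to 57.5 FPKM in PBS libraries. Lcn2, with means of 31.0 and 24.1 FPKM, did not pass. Of 10 monocyte genes, 9 were higher and none passed, and their sum, led by Fn1 and Vcan, was 27.1 to 32.5 FPKM against 20.2 to 27.5 FPKM. Most of this sum came from Fn1 (means 15.6 and 14.05 FPKM) and Vcan (5.29 and 5.32 FPKM). Ly6c2 had means of 0.473 and 0.272 FPKM, and Ccr2 of 0.427 and 0.304 FPKM. In these mixed samples neither sum is a measure of leukocytes alone. Between mice of a group, Lgals3 varied with the neutrophil genes (r = 0.69, 16 libraries) and against the homeostatic microglia genes (r = −0.58). Values of like size were found for lists of other kinds. They were −0.68 for the fibroblast, −0.66 for the border-associated macrophage and −0.53 for the oligodendrocyte genes, and 0.54 for partners of osteopontin and galectin-3. With the homeostatic list as a covariate its log2FC was 1.07 (adjusted p = 0.00129 from the edgeR test). The part of the neutrophil and monocyte transcripts in the Lgals3 result was not tested.

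Sums of the other lists, like those of the neutrophil and monocyte genes, overlapped between the groups. Border-associated macrophage genes, led by Stab1 and Mrc1, summed to 10.8 to 18.8 FPKM in EAE libraries and 10.3 to 15.2 FPKM in PBS libraries. T cell genes, led by Cd4 and Lck, summed to 2.97 to 4.81 FPKM and 2.97 to 4.27 FPKM. Endothelial genes (10, led by Slc2a1 and Cldn5) gave 97.1 to 137 FPKM and 84.6 to 134 FPKM, and fibroblast genes (10, led by Pdgfra and Igf2) gave 34.4 to 56.7 FPKM and 39.5 to 45.4 FPKM. The 8 genes of choroid plexus epithelium, led by Ttr and Clic6, gave 80.1 to 136 FPKM and 103 to 243 FPKM, with 1 gene lower after adjustment. The median of this sum was 84.6 FPKM in EAE libraries and 158 FPKM in PBS libraries.

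Of the 16 genes for partners of osteopontin and galectin-3, 1 was higher and none was lower, with 12 of positive sign and a median log2FC of 0.14. The gene that passed was Itga5, an integrin chain (log2FC 0.49, adjusted p = 0.0261 from the edgeR test).

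Cst7, which encodes cystatin F, an inhibitor of lysosomal proteases (chr2:150570415-150578944, plus strand), was at 0.976 FPKM at the lowest (EAE 4), 2.44 at the median and 3.89 at the highest (EAE 5) in EAE mice. The PBS values were 1.14, 1.93 and 2.81 FPKM. In all, 3 EAE libraries lay above every PBS library and EAE 4 lay below all of them. Its log2FC was 0.31 (SE 0.23, approximate 95% interval −0.18 to 0.81), with an adjusted p of 0.516 in the edgeR test.

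Of 30 other genes of the damage-associated state, none was higher and 2 were lower, with a median log2FC of −0.01, and at an unadjusted p under 0.05 the counts were 3 and 7. The genes that passed as lower were Ctsb, a lysosomal protease (log2FC −0.17, adjusted p = 0.0397 from the edgeR test), and Ank, a membrane protein of phosphate transport (log2FC −0.16, adjusted p = 0.0200 from the edgeR test).

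The 10 mRNAs did not vary together between mice of a group. Of their 45 pairs, 21 had a positive and 24 a negative Pearson's r of log2 CPM over the 16 libraries once each group's mean was subtracted, with a median of −0.05. Apoe and Axl had the highest value (0.88) and Axl and Lpl the lowest (−0.76). Spp1 varied with Lpl (0.61) and Gpnmb (0.59), Trem2 with Apoe (0.62), and Clec7a with Lgals3 (0.57). Trem2 and Lgals3, which were both higher in EAE mice, had an r of −0.44, and the r of Trem2 with its adaptor Tyrobp was 0.37. These are descriptions of 16 mixed samples, with no test.

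**Figure D5:**
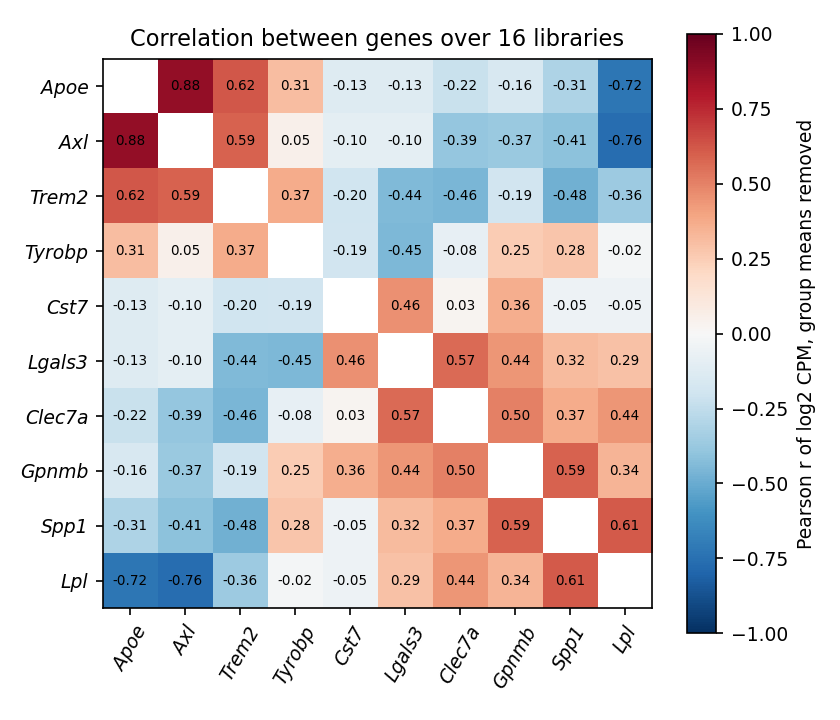
Pearson's r of log2 CPM between the 10 mRNAs over 16 libraries, with the mean of each group subtracted (red positive, blue negative, diagonal left empty). Apoe with Axl (0.88) is the deepest red and Axl with Lpl (−0.76) the deepest blue, and 24 of the 45 pairs are negative.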

How the data were processed

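Raw counts and FPKM values of 21878 mRNAs in 16 libraries (8 EAE, 8 PBS) were analysed. The authors made the deposited counts and FPKM values from reads of 150 bases. The submitters' processing notes name bcl2fastq, HISAT2 2.1.0, HTSeq 0.11.2 and DESeq2 1.22.2 without settings, and the strand setting of the counting is not given in the sources used here. For the 12025 mRNAs with 100 or more counts in each library, the deposited FPKM equalled the count divided by the library's total and by a fixed length per gene, within a relative spread of 3.37e-09, and rarer mRNAs were not checked. Samples were grouped by their titles, and 0 columns were left unused.

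Counts of 17885 mRNAs, those whose counts summed to 16 or more over all libraries, were tested with edgeR 4.0.16 (R 4.3.3), using TMM normalization, glmQLFit and glmQLFTest with the condition alone, two-sided, and Benjamini-Hochberg adjustment over all of them. A DEmRNA had an adjusted p under 0.05 and an absolute log2FC over 1. Log2 CPM used TMM and a prior count of 2. Approximate 95% intervals are the log2FC plus or minus the t quantile at 14 degrees of freedom times the SE. Exact permutation tests (numpy 2.4.6) ran over all 12870 divisions, with a smallest possible p of 0.000155. The scripts were tested on simulated data. Each p-value sets the difference between the groups against the spread between mice and treats the libraries as independent. The libraries that were alike within their group may not be independent, which was not tested.

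The alternatives were total counts alone, upper-quartile scaling, RLE size factors, a robust quasi-likelihood fit, no filter, filterByExpr, DESeq2 1.42.0, limma 3.58.1 on log2 FPKM with a pseudocount of 0.1 or 1, the replicate number as a block, each library left out, a term for the alike libraries, fits within and outside them, and list means as covariates. The members and lists were chosen with earlier results of these data known. All 10 members were named, with the genes of each pathway list at an adjusted p under 0.05 or else the 3 with the smallest p, the most abundant 2 genes of each cell type list (for oligodendrocytes, 1 of them is not reported here), and the 5 mRNAs with a mean CPM of at least 1 most like Trem2 and most like Gpnmb. EAE and PBS libraries share replicate numbers, but no source says that a number marks a shared litter or day. The same rule listed the 4 promoter motifs. Gene positions are those of GENCODE on GRCm38 and promoters those of RefSeq on GRCm38.p6.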

Additional observations from a re-analysis of the deposited data

How the results depend on the processing

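Lgals3 had an adjusted p under 0.05 in 16 of 16 fits that each left out 1 library and in 14 of 15 other planned settings, all but the 10 libraries outside the alike set. Trem2 had one in 11 of 16 and 13 of 15, and Apoe in 4 of 16 and 8 of 15. The 15 include the fit within the 6 alike libraries, which Lgals3 and Apoe passed and Trem2 did not. Since p-values there are too small by construction, passes and counts from that fit, here and below, are descriptions only. Members called higher (2 in all libraries) were 1 within the 6 alike libraries and 0 within the other 10, and 1 with the neuron covariate, which was chosen after seeing the data. With 1 library left out they were 1 to 2. Over all tested mRNAs, 118 were called higher and 315 lower in all libraries, and 1896 and 2251 within the 6 alike libraries. Those counts were 8 and 5 within the other 10, 33 and 21 with the neuron covariate, and 957 and 1385 without EAE 4 and EAE 5. Members called lower (1 in all libraries) were 0 with total counts, upper-quartile scaling, both limma pseudocounts, no filter, the other 10 libraries, the astrocyte covariate or the neuron covariate, 4 within the 6 alike libraries, 2 without EAE 4 and EAE 5, and 0 to 2 with 1 library left out. DEmRNAs (0 in all libraries, where 5 of the 10 had an unadjusted p under 0.05 in edgeR) were 1, Lgals3, with total counts, the homeostatic covariate, the neuron covariate and without EAE 4 and EAE 5, and 0 to 1 with 1 library left out.

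Pathway genes called higher (2 in all libraries) were 4 with DESeq2, 5 with a term for the alike set, 12 within the 6 alike libraries, 0 within the other 10, 5 with the homeostatic, 0 with the astrocyte and 1 with the neuron covariate, 9 without EAE 4 and EAE 5, and 1 to 5 with 1 library left out, the most without EAE 5. Pathway genes called lower (4 in all libraries) were 0 with total counts, both limma pseudocounts, the other 10 libraries and the neuron covariate, 1 with upper-quartile scaling, 9 with DESeq2, 9 with the set term, 29 within the 6 alike libraries, 10 with the homeostatic covariate, 17 without EAE 4 and EAE 5, and 0 (without PBS 2) to 12 (without EAE 4) with 1 library left out. These counts moved with those over all tested mRNAs, which were 118 higher and 315 lower in all libraries, 1896 and 2251 within the 6 alike libraries, 8 and 5 within the other 10, 381 and 670 with the homeostatic, 40 and 179 with the astrocyte and 33 and 21 with the neuron covariate, 957 and 1385 without EAE 4 and EAE 5, 297 and 602 with DESeq2, and 242 and 526 with the set term. The sign turned for Tyrobp (−0.13), Spp1 (−0.33) and Gpnmb (−0.42) within the 6 alike libraries, and for Lpl without EAE 5 (0.01), without EAE 4 and EAE 5 (0.06) and with the neuron covariate (0.21), the range for Lpl with 1 library left out being −0.11 to 0.01. The cause of these shifts was not tested.

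The replicate numbers did not pair the mice: the correlation of the deviations of same-numbered libraries was −0.12 to 0.38. With the replicate block, Trem2 had a log2FC of 0.54 (adjusted p = 0.0419), Apoe of −0.31 (adjusted p = 0.0392) and Lgals3 of 0.96 (adjusted p = 0.00682) in edgeR, and 7 pathway genes were lower instead of 4. Clec7a rests on 7 to 33 counts per library, which limits what could be detected.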
